A study of Mus musculus with 4 samples.

Results

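The loci described here are 7 of the 50600 genes counted in T-helper 2 cells: the ribosomal RNA pair CT010467.1 and Gm42418 on mouse chromosome 17, the overlapping pair Rmrp and Ccdc107 on chromosome 4, and the structural RNA genes Rn7sk, Rn7s1 and Rpph1. They were chosen by name with their counts known, so their levels and their spread between libraries are given as a description. T-helper 2 cells are CD4 T cells whose hallmark cytokine is interleukin-4. The study held 4 RNA-seq libraries of 1 group, biological replicates 1 to 4 of primary cells of the mouse strain C57BL/6NJ, with no other cell type, treatment or control. Paths in the file headers name a time point of 24 hours, and the labels give no time, age or sex. All libraries carry the same donor record and nothing says that the replicates came from separate mice, so spread and p-values here measure only how these samples differ, which may be technical. By its labels the assay is total RNA-seq, yet the name of the linked library protocol is that of a poly(A) RNA protocol.

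Ribosomal RNA is the bulk of a cell's RNA. RNA polymerase I makes it as a precursor that is cut into the 18S RNA, the 28S RNA and a smaller one, and 18S RNA is the core of the small ribosomal subunit. RNase MRP, whose RNA is Rmrp, cuts that precursor, and its sister enzyme RNase P, whose RNA is Rpph1, trims the 5′ ends of transfer RNAs. Rn7sk is 7SK RNA, which holds the elongation factor P-TEFb inactive, and Rn7s1 is a gene of 7SL RNA, the scaffold of the signal recognition particle. Rmrp, Rpph1, Rn7sk and Rn7s1 are made by RNA polymerase III. None of these RNAs ends in a long poly(A) tail.

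The letters of the ribosomal RNA pair show which strand of the locus carries the ribosomal RNA. Gm42418 (ENSMUSG00000098178.1), annotated as a long intergenic non-coding RNA, is a single exon of 1831 bases at chr17:39846958-39848788 on the plus strand. CT010467.1 (ENSMUSG00000106106.2) has 3 exons of 2466 bases in all at chr17:39846353-39848827 on the minus strand, and 1822 of them lie opposite Gm42418. The stretches below are shown because they tell the strands apart. All sequences are those of GENCODE M21 transcripts on GRCm38, 5′ to 3′, and each stretch of one gene is the reverse complement of the stretch of the other. In the stretch at chr17:39846958-39847047, capitals mark a 19-base sequence that is conserved in small-subunit ribosomal RNA, or its reverse complement.
Gm42418, start: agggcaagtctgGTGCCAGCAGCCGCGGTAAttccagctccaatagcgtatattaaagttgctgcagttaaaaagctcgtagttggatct
CT010467.1, same stretch: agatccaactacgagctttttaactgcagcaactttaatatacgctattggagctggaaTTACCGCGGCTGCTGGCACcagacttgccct

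Of 55341 genes in the transcript sequences, 1 holds GTGCCAGCAGCCGCGGTAA on its own strand, Gm42418, and 1 holds its reverse complement, CT010467.1. In the stretch at chr17:39848142-39848201, capitals mark the last 9 bases of 18S ribosomal RNA on the strand of Gm42418, and their reverse complement at the start of a CT010467.1 transcript.
Gm42418, same stretch: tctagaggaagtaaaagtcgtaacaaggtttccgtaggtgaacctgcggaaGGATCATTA
CT010467.1, start: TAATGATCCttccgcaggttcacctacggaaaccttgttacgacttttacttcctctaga

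The 18S letters therefore read in the right direction on Gm42418, and backwards on CT010467.1. The transcript of CT010467.1 that starts with these bases is 1849 bases long, and 1244 bases of Gm42418 lie opposite it. For a search of shared runs of 31 bases, the reverse complement of that transcript served as the 18S sequence. It was found in the same direction in 1 gene, Gm42418, and in the reverse direction in 2, CT010467.1 and AY036118. The match of CT010467.1 follows from that choice, and the other matches follow from overlap with it. The search therefore shows only that no further gene in the counts shares such a run. AY036118, of 923 bases, lies wholly inside CT010467.1 on the same strand.

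The same check on the structural RNAs shows which of them have an annotated gene on the other strand. Rmrp (ENSMUSG00000088088.1) is a single exon of 271 bases at chr4:43492788-43493058 on the minus strand. Ccdc107 (ENSMUSG00000028461.12), a protein-coding gene whose product holds a coiled coil, has 5 exons of 1547 bases in all at chr4:43492900-43495921 on the plus strand. Its whole first exon, 124 bases, lies inside Rmrp, and capitals mark these bases in the sequence of Rmrp, which is shown because a fragment from them can be counted only on one gene or the other, by its strand.
Rmrp, whole: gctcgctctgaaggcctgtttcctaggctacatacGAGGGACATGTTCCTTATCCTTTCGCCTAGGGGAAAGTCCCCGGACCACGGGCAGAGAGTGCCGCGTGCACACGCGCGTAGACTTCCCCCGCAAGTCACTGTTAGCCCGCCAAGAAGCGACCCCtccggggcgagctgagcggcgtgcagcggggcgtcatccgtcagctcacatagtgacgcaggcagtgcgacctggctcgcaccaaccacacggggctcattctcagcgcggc

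Rn7s1 (ENSMUSG00000099021.1) is a single exon of 300 bases at chr12:69159295-69159594 on the plus strand. Rn7s2 has the same letters at all 300 positions, so a fragment that lies wholly within them matches both copies alike. Runs of 31 bases of Rn7s1 were found in the same direction in 18 genes, those of Rn7sk in 26 and those of Rpph1 in 5, and in the reverse direction in none. Rn7sk (ENSMUSG00000065037.1) is a single exon of 331 bases at chr9:78175303-78175633 and Rpph1 (ENSMUSG00000092837.1) one of 319 bases at chr14:50807449-50807767, both on the minus strand. No exon of another gene lies opposite Rn7sk, Rn7s1 or Rpph1, so the table has no feature on their other strand. The maps of the chromosome 17 and chromosome 4 loci draw the overlaps to scale.

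**Figure D1:**
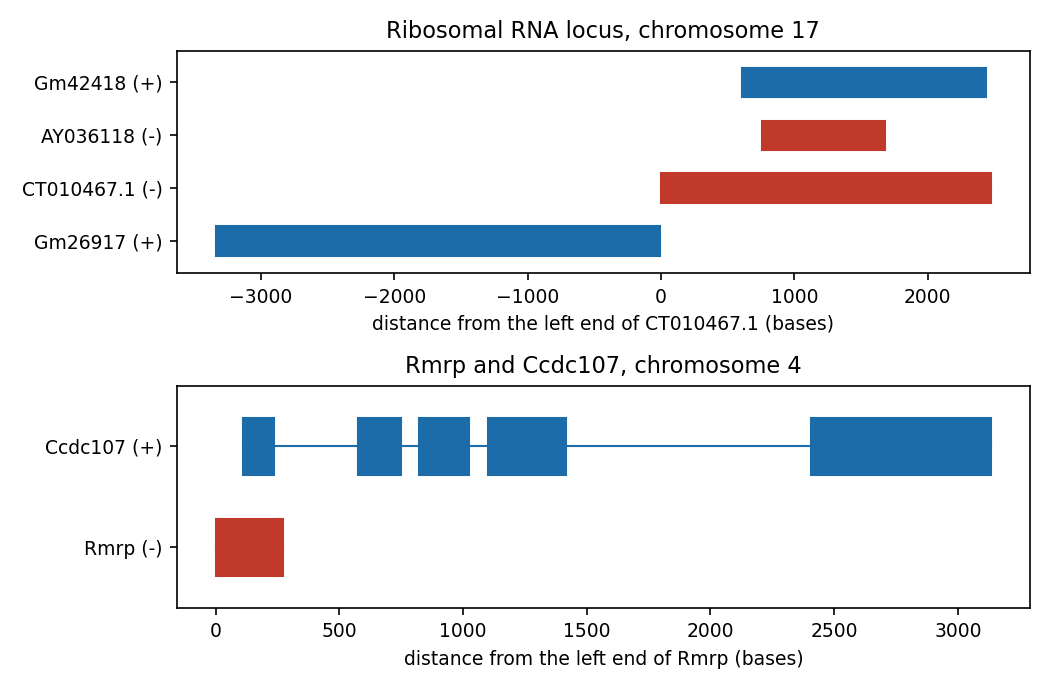
Exons of the chromosome 17 pair and of the chromosome 4 pair with their neighbours, by strand, with the distance in bases from the left end of CT010467.1 (top) or Rmrp (bottom) on the horizontal axis, plus strand in blue and minus strand in red. Gm42418 lies opposite CT010467.1 over 1822 bases, AY036118 lies inside CT010467.1 on the same strand, and the first exon of Ccdc107 lies inside Rmrp.

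The libraries held between 1804217 and 2711948 counts, in 12398 to 14083 genes. Without CT010467.1 they held between 1785767 and 1935713, so that the largest total was 1.08 times the smallest in place of 1.5 times. The limit that a count of 0 allows, 3 counts, lay between 1.11 and 1.66 CPM (counts scaled to the same total in each library). Fragments were counted by strand, in a pipeline that the header paths call stranded. Of the counts outside CT010467.1, between 92.1% and 95.2% per library lay in genes with exon bases opposite another gene, which are 8189 of the 50600 genes. Whether the strand setting fits the library kit was not tested. Of the T cell markers, Cd4 had 56, 67, 71 and 20 counts in replicates 1 to 4, Gata3 had 20, 47, 44 and 22, and Il4 had 24, 21, 25 and 26. Il5 and Il13, the other cytokines that define these cells, had 1 count each in all. The 11 T cell markers together had 110, 148, 82.6 and 44.2 CPM. Of 16 markers of other cell types, 10 were at 0 in every library. Most genes were at 0 throughout, as only 17203 of the 50600 had a count in any library. The 16 markers together had 982, 948, 640 and 747 CPM. Nearly all of that sum lay in markers with exon bases opposite another gene, such as Foxp3, the regulatory T cell factor, which had between 601 and 730 counts and 590 exon bases opposite Ccdc22. The 13 markers without such bases had between 8.11 and 15.2 CPM per library, with the macrophage marker Cd68 at 6.29 TPM ± 3.19 and the B cell marker Cd79a at 5.92 ± 1.52 (SD, n = 4), both above 1 TPM by limma.

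CT010467.1, which reads 18S ribosomal RNA backwards, had the highest mean count of all 50600 genes. It had 18450 counts in replicate 1, 21080 in replicate 2, 776235 in replicate 3 and 312900 in replicate 4. These were 1.02% of the library (Wilson 95% interval 1.01% to 1.04%), 1.14% (1.13% to 1.16%), 28.6% (28.6% to 28.7%) and 14.4% (14.4% to 14.5%), a mean of 11.3% ± 13.1 (SD, n = 4). Replicates 3 and 4 were high, replicate 3 the higher by 1.98 times in CPM, and replicates 1 and 2 were low. The intervals cover counting error only, and none of the 4 overlaps another. In bulk RNA, fewer cells holding an RNA and less of it per cell cannot be told apart. The highest CPM was 28.0 times the lowest. In CPM of the counts outside CT010467.1 itself, a scale on which the gene does not lower its own value, it was 38.8 times.

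**Figure D2:**
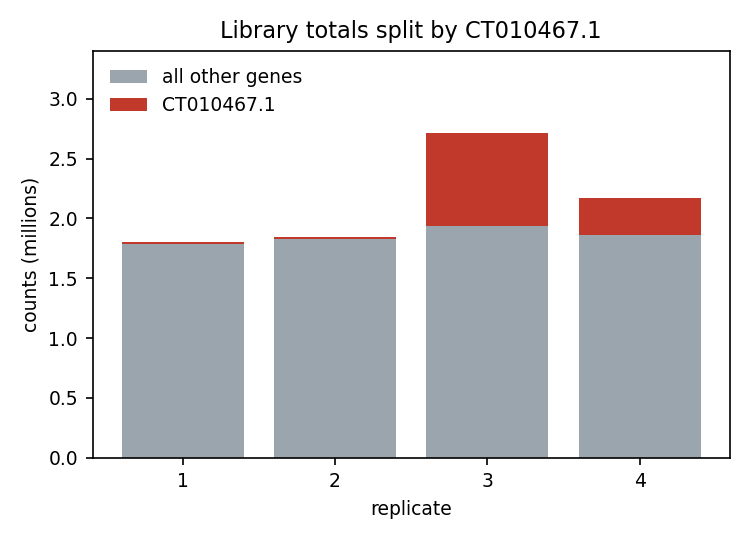
Total counts per library, in bars from 0, divided into CT010467.1 and all other genes, for replicates 1 to 4. The counts of all other genes lie between 1785767 and 1935713, while those of CT010467.1 lie between 18450 and 776235.

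AY036118 was at 0 in every library. The counting command carries no option to count a fragment for more than 1 gene of the same strand. By default the counter leaves out a fragment that matches such genes alike. On that default, fragments wholly within the 923 bases shared with AY036118 add to neither gene. The counts of CT010467.1 then come from fragments that reach its other 1543 bases. How pairs with only 1 end in the shared stretch were counted was not tested. In TPM, the count per exon base scaled to the same total in each library, which uses all 2466 bases, CT010467.1 stood at 6075, 6777, 189676 and 85311 in replicates 1 to 4.

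Gm42418, which reads 18S ribosomal RNA forwards, had 33, 36, 1065 and 45 counts in replicates 1 to 4. Its levels were 14.6, 15.6, 350 and 16.5 TPM, a mean of 99.3 ± 167 (SD, n = 4). Only replicate 3 was high, 18.9 times the next highest library in CPM, and the other libraries lay close together. Replicate 4, in which CT010467.1 was high, was thus low for Gm42418. Gm42418 took between 0.0144% and 0.179% of the counts of the pair.

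**Figure D3:**
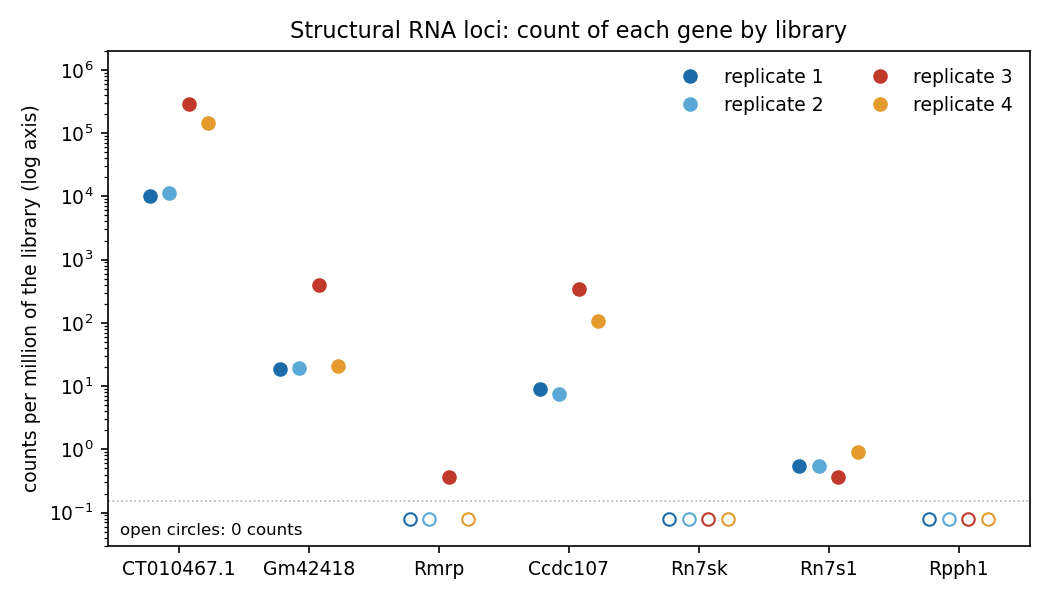
CPM of the 7 genes in replicates 1 to 4, one point per library, on a log axis, with counts of 0 drawn as open circles under the dotted line. CT010467.1 lies between 10226 and 286228 CPM, Gm42418 and Ccdc107 lie between 7.58 and 393 CPM, and Rmrp, Rn7sk, Rn7s1 and Rpph1 lie under 1 CPM.

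The ratio of the counts of CT010467.1 to those of Gm42418 set replicate 4 apart. It was 559 in replicate 1 (exact 95% interval 398 to 812), 586 in replicate 2 (423 to 836), 729 in replicate 3 (686 to 775) and 6953 in replicate 4 (5196 to 9533). The intervals of replicates 1, 2 and 3 overlap, and that of replicate 4 lies above them all. On the log2 scale the ratios were 9.13, 9.19, 9.51 and 12.76, a mean of 10.15 ± 1.75 (SD, n = 4), and replicate 4 was 3.49 above the mean of the others. In replicate 3 both strands were high, so its ratio stayed near those of replicates 1 and 2.

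Other loci with genes on both strands were compared in the same way. Among 1281 other pairs with at least 50 shared exon bases and a mean count of at least 10 on the lower gene, the log2 ratio of the higher to the lower gene was above the mean of the other libraries in replicate 4 for 855 pairs. The median shift was 0.31, with quartiles of -0.14 and 1.03, where the same median was -0.08, -0.16 and -0.16 for replicates 1, 2 and 3. Of the pairs, 19 shifted in replicate 4 by more than the 3.48 of CT010467.1 and Gm42418 on the same scale, with 0.5 added to each count. For the 2465 genes with no exon bases opposite another gene and a mean count of at least 10, the median log2 difference from the other libraries, in CPM of the counts outside CT010467.1, was 0.28, 0.48, 0.35 and -1.04 in replicates 1 to 4. How far this difference of the library bears on the ratio was not tested. As a ratio of counts summed over libraries, CT010467.1 to Gm42418 was 957, and none of the 1281 other pairs was above it, with a median of 9.23. This pair was chosen with its counts known, and CT010467.1 has the highest mean count of all genes. The minimum mean count on the lower gene also limits how high the other ratios can be. Nothing is therefore read from the place of the pair among the others.

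**Figure D4:**
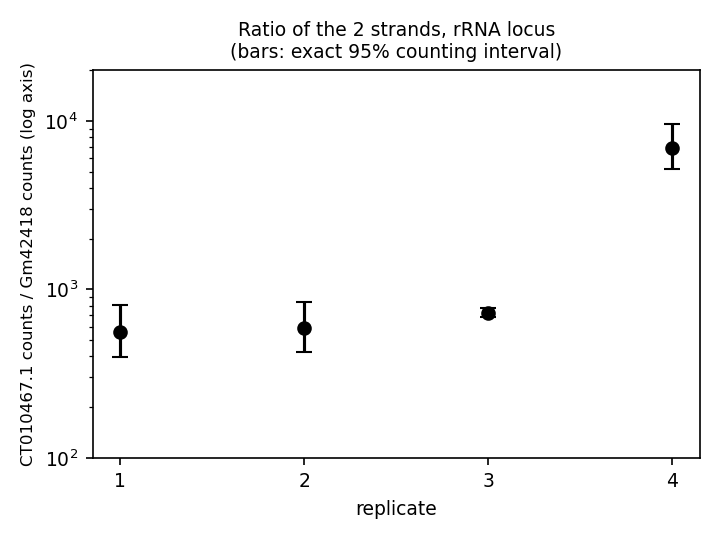
Ratio of the counts of CT010467.1 to those of Gm42418 by replicate, on a log axis, with exact 95% intervals for counting error as bars. Replicates 1 to 3 lie between 559 and 729, and replicate 4 lies at 6953.

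At the chromosome 4 locus the counts lay on Ccdc107, the protein-coding gene, and not on Rmrp, the RNA of RNase MRP. Ccdc107 had 16, 14, 914 and 235 counts in replicates 1 to 4, and Rmrp had 0, 0, 1 and 0. Ccdc107 stood at 8.4, 7.17, 356 and 102 TPM, a mean of 118 ± 165 (SD, n = 4). Replicate 3 was high, replicate 4 lower than it by a factor of 3.11 in CPM, and replicates 1 and 2 were low. In replicate 3 the ratio was 914 to 1, with an exact 95% interval of 164 to 36140. Where Rmrp was at 0, the lower ends of the exact 95% intervals were 3.86 in replicate 1, 3.32 in replicate 2 and 63.2 in replicate 4. Per exon base, the ratio in replicate 3 was 160. Against the limit of 3 counts that a count of 0 allows, the ratio per exon base was 0.934 in replicate 1, 0.817 in replicate 2 and 13.7 in replicate 4, so that per exon base replicates 1 and 2 do not tell which gene was higher. The table gives 1 count per gene, so it does not say how many of the fragments of Ccdc107 lay in the 124 bases shared with Rmrp and how many in the other 4 exons.

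Ccdc107 and CT010467.1, on different chromosomes, had a like pattern over the 4 libraries. The ratio of CT010467.1 to Ccdc107 was 1153 in replicate 1 (exact 95% interval 710 to 2018), 1506 in replicate 2 (897 to 2755), 849 in replicate 3 (796 to 907) and 1331 in replicate 4 (1172 to 1520). The highest ratio was 1.77 times the lowest, while the counts of CT010467.1 spanned 42.1 times and those of Ccdc107 65.3 times. Replicate 3 was below replicate 4 beyond counting error, and the intervals of replicates 1, 2 and 4 overlap.

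Rn7sk, the 7SK RNA, and Rpph1, the RNA of RNase P, were at 0 in all 4 libraries. A count of 0 allows up to 1.66 CPM in the library with the fewest counts and 1.11 CPM in the one with the most. Rn7s1, the 7SL RNA, had 1, 1, 1 and 2 counts, a mean of 2.96 TPM ± 1.06 (SD, n = 4), under 3 counts in every library. Of its 300 bases, 147 are shared on the same strand with Gm47295 and Gm47287, both at 0, and a further copy, Rn7s2, has identical letters, so its level is uncertain.

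The pattern over libraries was compared by the root mean square difference of log2 CPM, centred on each gene's mean, over 4 libraries and 1964 genes with a mean count of at least 100. The gene nearest to CT010467.1 was Ccdc107, at 0.3, followed by Gm20628 at 1.09, against a median of 2.33 for all. For Ccdc107 these were CT010467.1 at 0.3 and Gm20628 at 1.24, against a median of 2.51. For Gm42418 they were Gm20628 at 1.35 and Ccdc107 at 1.46, against 2.06. Ccdc107 and Gm20628 had under 100 counts in replicates 1 and 2, and passed the limit of 100 only through replicates 3 and 4. Genes as low in replicates 1 and 2 without that rise were left out. The distances are thus a description, and nothing is read from their place against the median. Gm20628 had 39, 26, 253 and 146 counts in replicates 1 to 4, and 488 of its exon bases lie opposite Hist2h3b, a histone H3 gene. Replication-dependent histone messenger RNAs also lack a poly(A) tail and end in a stem-loop.

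**Figure D5:**
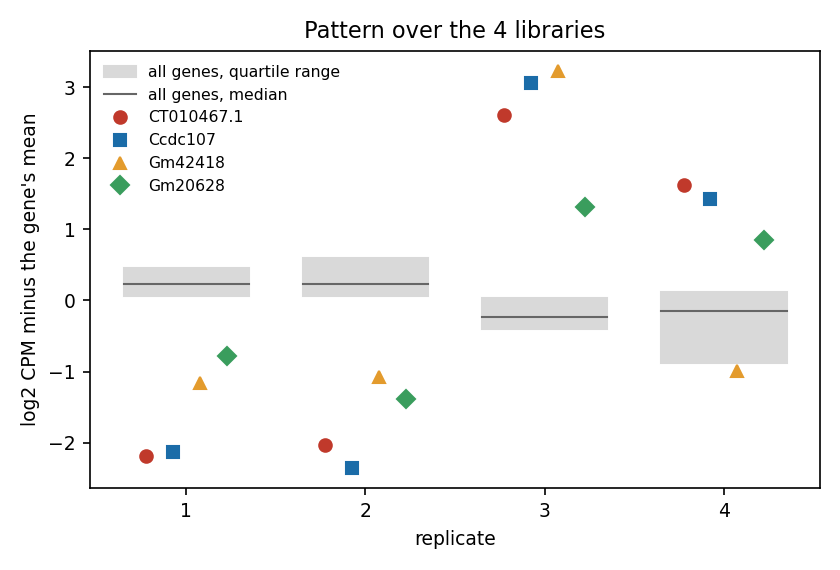
Log2 CPM minus each gene's mean over the 4 libraries, by replicate, for CT010467.1, Ccdc107, Gm42418 and Gm20628, with the median and quartile range of the 6081 genes with a mean count of at least 10 as grey bars. CT010467.1 and Ccdc107 lie above the grey bars in replicates 3 and 4, and Gm42418 lies above them in replicate 3 alone.

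The features opposite histone genes other than Gm20628 were then looked up, a set chosen after the values were seen and so given with no test. The order of CT010467.1, highest in replicate 3 and next in replicate 4, depended on the scale. In CPM of the counts outside CT010467.1, 7 of the 11 with a mean count of at least 10 had that order, or 63.6%, against 263 of all 6081 genes with such a mean, or 4.32%. In CPM of the whole library, 1 of the 11 had it, or 9.09%, against 25 of 6081, or 0.411%. Gm44454, opposite Hist1h2ak, had 82, 75, 195 and 173 counts in replicates 1 to 4. It had that order only in CPM of the counts outside CT010467.1. Gm44492, opposite Hist2h2ac, had 16, 13, 71 and 54 counts and had that order on both scales. On either scale Gm44367, Gm44486, Gm44394 and Gm44484 were highest in replicate 4.

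Among the 6081 genes with a mean count of at least 10, Gm42418, Ccdc107 and CT010467.1 had the largest differences in replicate 3. These loci were chosen with their counts known, so nothing is read from their ranks. The log2 CPM of replicate 3 minus the mean of the other libraries was 4.31 for Gm42418, 4.09 for Ccdc107 and 3.48 for CT010467.1, ranks 1, 2 and 3 of 6081, where the median gene was at -0.31. In replicate 4 the difference was 2.16 for CT010467.1 and 1.91 for Ccdc107, and -1.32 for Gm42418, where the median gene was at -0.19. With one of the other libraries left out, these lay between 1.33 and 3.74, between 0.97 and 3.68, and between -2.07 and 0.13, with the last value of each range without replicate 3. With totals that leave out CT010467.1, the median gene moved from -0.31 to 0.09 in replicate 3 and from -0.19 to -0.14 in replicate 4, and the values in replicate 4 were 2.21, 1.96 and -1.27. Only 5 of the 6081 genes, 0.0822%, were over 8-fold higher in replicate 3 than in both replicates 1 and 2, in CPM of the counts outside CT010467.1. They were Ccdc107 at 52.7-fold over the higher of these, CT010467.1 at 34.7-fold, Gm42418 at 27.9-fold, Gm44297 at 9.23-fold and Gm23935 at 8.45-fold, a count whose limit was set after the values were seen. Gm44297, opposite Hist1h2af, had 3, 1, 30 and 27 counts in replicates 1 to 4, and Gm23935 had 19, 19, 174 and 76.

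Spread between replicates was also tested across all genes that passed the expression filter of edgeR, by setting each gene's quasi-likelihood dispersion against the trend. With Benjamini-Hochberg adjustment 0 of 4190 genes, 0.0%, passed an adjusted p of 0.05, and 268 had an unadjusted p under 0.05. The dispersion outliers of DESeq2 numbered 15. CT010467.1 ranked first in the edgeR test, Gm42418 the third and Ccdc107 the fourth, with adjusted p of 0.153, 0.193 and 0.193, and Rmrp, Rn7sk, Rn7s1 and Rpph1 did not pass the filter. The same 3 loci were among the 15 of DESeq2, and edgeR called them with a filter at a mean CPM of 1, where 8 of 10968 genes passed, with adjusted p of 1.73e-05, 0.00553 and 0.00553. They also passed when all genes with a count were tested, among 345 of 17203. Since the loci were chosen on these counts, nothing is read from these calls or ranks. Without replicate 4, edgeR called 20 of 5007 genes, with the same 3 loci at ranks 1 to 3, and without replicate 3, Gm42418 fell to rank 3254.

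Of the other ribosomal RNA loci, 3 had a mean count of at least 10. Gm26917, of 3329 bases, lies next to the pair at chr17:39843013-39846341 on the plus strand and had 5, 56, 138 and 11 counts in replicates 1 to 4. The mitochondrial ribosomal RNAs mt-Rnr1 and mt-Rnr2, the small and the large, had 37, 55, 95 and 13 counts and 55, 55, 147 and 24. All 3 were highest in replicate 3. In replicate 4, where CT010467.1 was high, mt-Rnr1 and mt-Rnr2 were at their lowest, 5.99 and 11.1 CPM. Neither has exon bases opposite another gene, and the 2465 such genes with a mean count of at least 10 were low there too. Their median log2 difference from the other libraries was -1.04. The means of Gm26917, mt-Rnr1 and mt-Rnr2 were 10.4 TPM ± 11.1, 36.6 ± 21.7 and 30.5 ± 18.9 (SD, n = 4). Gm15564 had 0, 1, 2 and 2 counts, and Rn5s, the 5S RNA, and Gm26870 were at 0. Of the 9 ribosomal RNA genes matched, 6 had a count and entered limma's one-sample test of log2(TPM + 0.1) against 1 TPM, and 5 were above it. CT010467.1 and Gm42418 are among the 5. They were chosen with their counts known, so nothing is read from their calls. Over all genes 5523 of 17203, 32.1%, were above 1 TPM by this test and 4571, 26.6%, below.

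Other small structural RNAs were near 0 like Rn7sk and Rpph1. A list of 22 such RNAs, among them the spliceosomal RNAs, the other 7SL genes, the Y RNAs, the vault RNA and the telomerase RNA, matched 21 names with 24 gene IDs. Of these IDs, 22 were at 0 in every library, Rnu11 had 0, 3, 0 and 0 counts and Rnu73b had 1, 0, 0 and 0. Over all genes, only 17203 of 50600 had a count in any library, so a count of 0 is common. The listed genes are also short, from 62 bases for Rnu7 to 423 for Terc. Whether they differ from other genes of that length was not tested. The 141 small nucleolar RNA genes named Snora or Snord, which guide chemical changes of ribosomal RNA, had 15, 20, 17 and 17 counts in all in replicates 1 to 4, in 20 genes. The highest were Snord4a, with 3, 8, 7 and 6, Snord42a, with 3, 4, 2 and 3, and Snord8, with 3, 4, 1 and 2. Snord4a and Snord42a lie wholly opposite Tlcd1, and Snord8 has no exon bases opposite another gene. The 9 Scarna genes and 2 Rny genes were at 0. The 180 genes named n-R5s, copies of 5S ribosomal RNA, had 43, 43, 52 and 58 counts in all, in 17 genes. The highest, n-R5s202, had 14, 18, 22 and 21 counts and lies wholly opposite Emc7, followed by n-R5s183, with 9, 7, 4 and 10, and n-R5s76, with 4, 6, 4 and 7. Like n-R5s202, n-R5s76 lies wholly opposite a gene, Hddc2, and n-R5s183 does not. In CPM of the counts outside CT010467.1, the n-R5s sums were 24.1, 23.6, 26.9 and 31.2, and the small nucleolar sums were 8.4, 8.78 and 9.15 in replicates 1, 3 and 4 and highest in replicate 2.

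The genes for the protein partners of these RNAs were counted as well, each list as its number above or below 1 TPM by limma at an adjusted p of 0.05. The median of all tested genes' mean levels was 1.14 TPM. Over all genes tested, 32.1% were above 1 TPM and 26.6% below, and each list is given beside these shares. For RNase MRP and P, RNA polymerase I and RNA polymerase III the share above 1 TPM was no higher than over all genes. In the edgeR test of spread, which called 0 of all genes, the list genes that passed the filter were 14 of 23 for ribosomal RNA processing, 5 of 27 for RNA polymerase III, 4 of 15 for RNA polymerase I, 3 of 7 for the 7SK particle, 1 of 11 for RNase MRP and P and 0 of 10 for the signal recognition particle.

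Of the 11 protein subunits of RNase MRP and RNase P, 3 were above 1 TPM and 1 below, with a median of 1.32 TPM. Pop5 was the highest, with 48, 49, 60 and 44 counts in replicates 1 to 4 and 15.6 TPM ± 1.92, followed by Pop7 at 5.95 ± 2.27 and Pop1 at 2.28 ± 0.804 (SD, n = 4). Pop5 was thus level across libraries in which Ccdc107, opposite the RNA of the same enzyme, spanned 65.3 times.

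Of the 7 genes for the 7SK particle and P-TEFb, 4 were above 1 TPM and 0 below, with a median of 2.83 TPM. Larp7, which binds the end of 7SK RNA, had 36, 43, 32 and 10 counts in replicates 1 to 4 and 9.44 TPM ± 5.11. Ccnt1, the cyclin of P-TEFb, stood at 8.25 TPM ± 0.824, Mepce, which caps 7SK RNA, at 3.61 ± 0.393 and Hexim1, the inhibitor, at 2.83 ± 0.247 (SD, n = 4). Larp7 was lowest in replicate 4 and the other 3 varied little.

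Of the 10 matched genes for the signal recognition particle and its receptor, 8 had counts, 5 were above 1 TPM and 0 below, with a median of 1.59 TPM. Srp14 stood at 5.72 TPM ± 2.66, Srpr, the receptor, at 5.39 ± 2.76, Srp72 at 4.06 ± 2.09 and Srp68 at 3.72 ± 1.76 (SD, n = 4).

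Of 15 genes for RNA polymerase I and its factors, 4 were above 1 TPM and 0 below, with a median of 1.68 TPM. Cd3eap, a polymerase I subunit, was at 48.5 TPM ± 12.3, with 106 exon bases opposite Ercc1. Ubtf, the upstream binding factor of the ribosomal RNA genes, stood at 9.98 TPM ± 1.75 and Polr1c at 6.91 ± 1.3 (SD, n = 4).

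Of 27 genes for RNA polymerase III and its factors, 8 were above 1 TPM and 2 below, with a median of 1.2 TPM. Snapc3, at 442 TPM ± 33.3, has exon bases opposite Psip1, and Gtf3a, at 93.2 ± 16.4, has exon bases opposite Mtif3 (SD, n = 4). Polr3c, a polymerase III subunit with no such bases, had 18, 36, 34 and 187 counts and was high in replicate 4 alone.

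Of 23 genes for ribosomal RNA processing, 17 were above 1 TPM and 0 below, with a median of 6.48 TPM. Npm1 and Ncl, the abundant nucleolar proteins nucleophosmin and nucleolin, had 877, 1125, 1096 and 178 counts and 1307, 1611, 1588 and 322 in replicates 1 to 4. Neither has exon bases opposite another gene. The list summed to 1682, 2087, 1413 and 410 CPM, lowest in replicate 4. Genes with no exon bases opposite another gene were low in that library in general. Their median log2 difference from the other libraries was -1.04 over 2465 genes. Whether the list goes with CT010467.1 was not tested. Nolc1 stood at 43.3 TPM ± 14.7 and Nhp2 at 34.0 ± 4.72 (SD, n = 4).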

How the data were processed

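RNA was sequenced in 4 libraries of 1 group. The authors counted paired fragments per gene with featureCounts 1.4.6-p4 over GENCODE M13 exons, with both ends aligned and strand setting 1, per the file headers. The deposited values are raw counts, not normalized. The labels give the assembly mm10, and the aligner version is not given in the sources used here. CPM, TPM (count over exon length, scaled per library), shares and count ratios were computed from these counts. Exon overlaps were computed with bedtools 2.31.1. Intervals are Wilson for shares and exact binomial for ratios. Levels were tested with limma 3.58.1 and spread with edgeR 4.0.16, as an intercept-only quasi-likelihood fit with TMM factors and a robust prior. The level test is two-sided and the spread test upper tail, each with Benjamini-Hochberg adjustment. Scripts ran in R 4.3.3 with DESeq2 1.42.0 for alternatives, and in Python 3.11.15 with scipy 1.17.1. Level and spread tests were tested on simulated data. The robust prior was chosen after the files were seen.

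Symbols matched 50376 of 50600 IDs. Named genes are the 7 loci, their overlapping genes, the nearest in pattern (up to 2 each), the genes of highest mean TPM in each list (at most 4, some not reported here), and the 3 highest of each symbol family. Members and lists were chosen with earlier results of these data known. Alternatives were other scalings, filters, pseudocounts, tools and denominators, and fits without each replicate.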

Additional observations from a re-analysis of the deposited data

Results flagged for a closer look

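Of 30 values tested for a library far from the others, 3 had a gap to the nearest library that, as a share of the whole range, was above Dixon's 95% critical value. Chance gives about 1 in 20 for values that were not picked by their counts. CT010467.1 and Gm42418 were chosen with their counts known, so their flags are not read against that rate. Gm42418 had 393 CPM in replicate 3, with a gap of 0.993 of the range. The log2 ratio of CT010467.1 to Gm42418 was 12.76 in replicate 4, with a gap of 0.895. Polr3c, an RNA polymerase III subunit, had 86.2 CPM in replicate 4, with a gap of 0.875, where it had 9.98, 19.5 and 12.5 in replicates 1 to 3.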

How the results depend on the processing

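The number of genes called for a spread between replicates above the trend was 0 by edgeR. It was also 0 with DESeq2 size factors, totals without CT010467.1 and limma-trend. A 0 here does not mean that no gene varied, since the counts of CT010467.1 spanned 42.1 times. The number was 0 too without the robust prior, a fit that made no calls on data with known answers, so that 0 says nothing. It was 345 of 17203 for genes with any count, 8 of 10968 for a mean CPM of at least 1, and 15 by the dispersion outliers of DESeq2. Leaving out each replicate gave 0 to 20, with 20 without replicate 4. Genes above 1 TPM stayed within 1.5 times of 5523 in all 8 alternatives. Genes below 1 TPM numbered 4571, but 13 under a minimum mean count of 10, which leaves fewer genes to test. They numbered between 2410 and 2928 with a replicate left out.

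The mean share of CT010467.1, 11.3%, was 46.7% when set against genes with no shared exon bases, and between 5.53% and 14.7% with a replicate left out. The mean log2 ratio of Ccdc107 to Rmrp, with 0.5 added to each count, was 7.01, and 4.5 per exon base. Gm42418 in replicate 4 minus the other libraries, -1.32, lay between -2.07 and 0.13 with a replicate left out, at 0.13 without replicate 3. No paired analysis was possible because there is 1 group. Counts of 0 to 2 at Rmrp, Rn7sk, Rn7s1 and Rpph1 limit what can be said of them to the 3-count limit of each library.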
